A study of Mus musculus with 9 samples.

Results

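Fatty acid synthesis, desaturation and elongation were followed through 10 genes of the pathway, chosen by symbol with earlier results of these data known. They were Srebf1, Acly, Acaca, Acacb, Fasn, Elovl6, Scd1, Elovl5, Fads2 and Elovl7. All 10 were found among the 27945 genes with a count in any library, and all 10 passed the filter on low counts. Polyadenylated RNA of mouse liver had been sequenced in 9 libraries, 3 labelled treated, 3 labelled model and 3 labelled control. The sample titles name the material as mouse liver cells, and the groups are called livers here. The series title names liver injury caused by gefitinib, an inhibitor of the epidermal growth factor receptor kinase, but no label tells what was given to the treated mice. No source used here gives strain, sex, age, dose, time of death or feeding state. Nothing states that replicate libraries stem from different animals, so a p-value measures only the spread between these libraries, which may be technical.

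The liver makes fatty acids from citrate that leaves the mitochondria. ATP citrate lyase splits citrate to acetyl-CoA, acetyl-CoA carboxylase makes malonyl-CoA, and fatty acid synthase joins these units into palmitate, using NADPH at each round. Elongases then lengthen the chain and desaturases add double bonds, which gives oleate and, from dietary precursors, the long polyunsaturated fatty acids of membranes. The transcription factor SREBP-1, the product of Srebf1, drives most of these genes after feeding and in response to insulin, together with the carbohydrate-responsive factor ChREBP and the oxysterol receptor LXR.

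Each library held between 56440871 and 60665156 estimated counts, spread over 20579 to 21441 genes. Summed over 9 hepatocyte genes such as Alb and Apob, libraries held 66870 to 82250 CPM (counts scaled to library size) in treated, 86710 to 89970 in model and 85960 to 97970 in control livers. Other cell types' markers differed between the groups. The summed level of 9 macrophage genes was 945.4 to 1060 CPM in treated, 252.4 to 333.8 in model and 170.0 to 254.5 in control livers. The summed level of 7 endothelial genes was 46.7 to 64.6 CPM in treated, 84.9 to 103 in model and 227 to 268 in control livers. Skeletal muscle genes, 8 in all, summed to 123 to 166 CPM in treated livers, to 192 CPM in model replicate 1 and to 0.697 to 1.55 CPM elsewhere. In bulk RNA, fewer cells of a type and less RNA per cell cannot be told apart.

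Of the 10 genes, Elovl6 rose in model livers against control livers, Elovl7 rose in treated livers against model livers, and both rose in treated livers against control livers. No gene of the 10 fell in any comparison. A gene was called at an adjusted p under 0.05 in edgeR's quasi-likelihood test with Benjamini-Hochberg adjustment over the 18113 genes tested, and every adjusted p below comes from that test unless another tool is named. In model against control livers 1 of 10 was called, where 1.12% of all genes tested were called, 0.519% higher and 0.596% lower. In treated against model livers 1 of 10 was called, where 9.65% of all genes were, 5.21% higher and 4.44% lower. In treated against control livers 2 of 10 were called, where 17.8% of all genes were, 9.36% higher and 8.47% lower. In both comparisons of treated livers the members' share is near the share over all genes, so these counts are no result about the 10 genes as a list. Since the 10 genes were chosen with earlier results known, no share of them here or below tests the list. The comparisons share libraries: the control libraries enter the first and the third, the model libraries the first and the second, and the treated libraries the second and the third.

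The median log2 fold change of the 10 genes was 0.48 in model against control livers, with 8 positive and 2 negative, beside a median of -0.001 over all genes tested. In treated against model livers it was -0.23, with 2 positive and 8 negative, beside 0.005 over all genes. In treated against control livers it was 0.09, with 5 positive and 5 negative, beside -0.009 over all genes. All 3 model libraries lay above all 3 control libraries for Acaca, Acly and Elovl6, 3 of 10 genes, where 9.71% of all genes did so, and none of the 10 lay wholly below, where 10.2% of all genes did. All 3 treated libraries lay above all 3 control libraries for Fasn, Acly, Elovl6 and Elovl7, 4 of 10 genes, where 19.3% of all genes did so, and none lay wholly below, where 18% of all genes did. Against model livers, treated libraries did not overlap for Elovl7, which was higher, where 16.2% of all genes did so. Elovl5 did not overlap either and was lower in each treated library, where 15% of all genes did so.

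**Figure D1:**
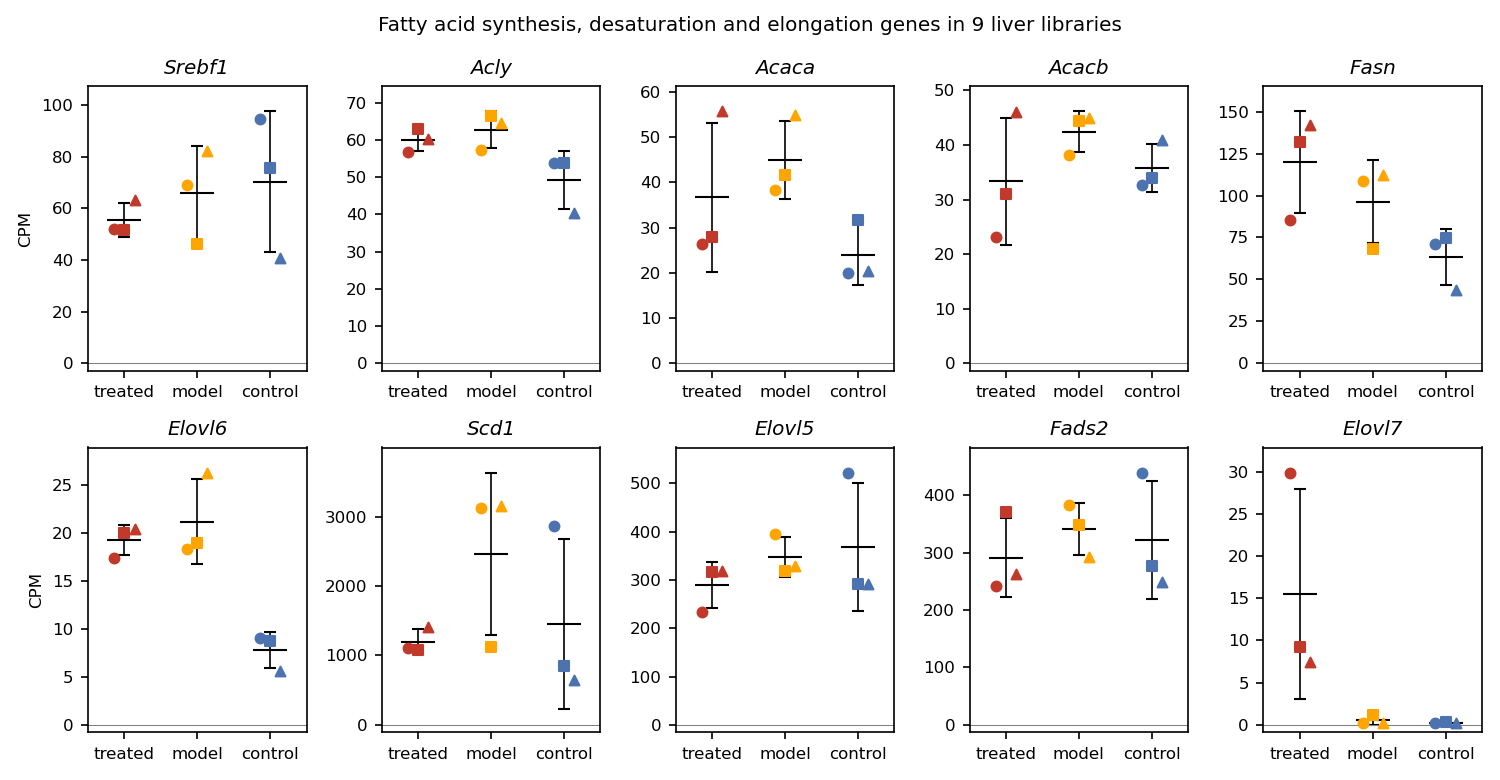
Level of each of the 10 genes in CPM (y axis, from 0) in the 3 treated, 3 model and 3 control libraries. Points are libraries (circle, replicate 1; square, replicate 2; triangle, replicate 3), the horizontal line is the group mean and the bar its SD (n = 3); Elovl6 lies between 17.4 and 26.3 CPM in treated and model livers and at most at 9.06 CPM in control livers, and Elovl7 lies at 7.44 CPM or more only in treated livers.

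**Figure D2:**
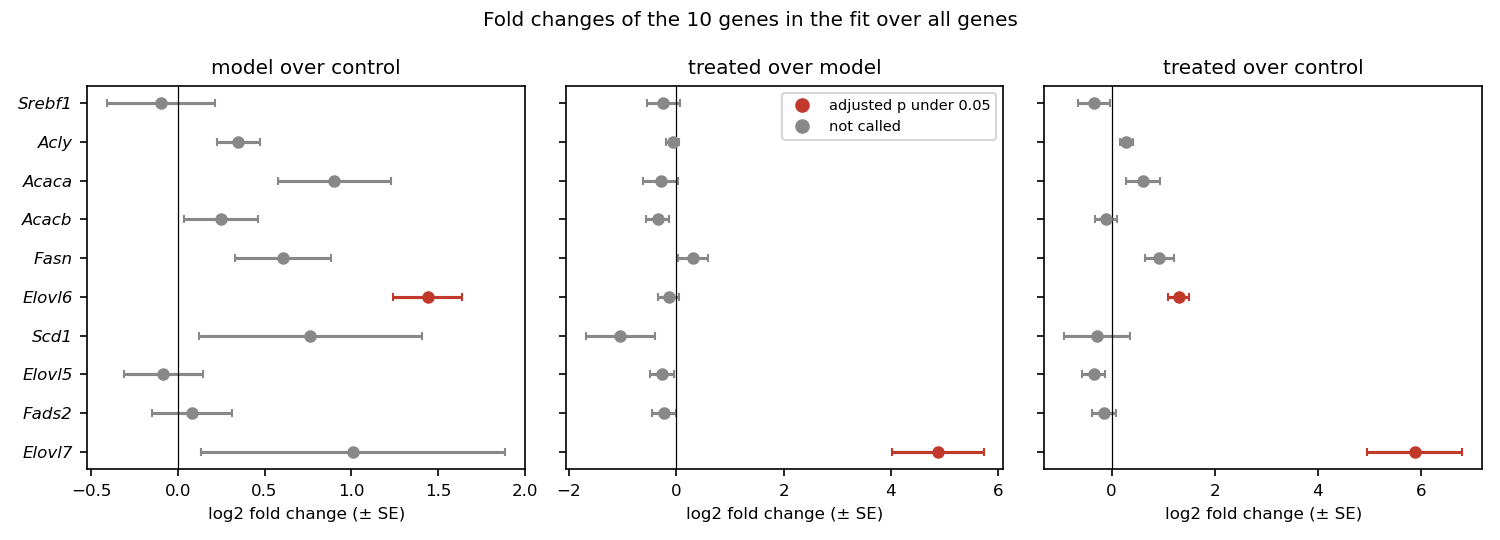
Fitted log2 fold change with its standard error (x axis) for each of the 10 genes, in model over control, treated over model and treated over control livers; the x axes differ in range. Red marks an adjusted p under 0.05, reached by Elovl6 over control in both groups and by Elovl7 in treated livers over both others.

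Scaled to gene length, Scd1 was the most abundant of the 10, with a mean of 305 FPKM (fragments scaled to gene length and library size) over the 9 libraries and a range of 109 to 558 FPKM. Fads2 and Elovl5 followed at 85.1 and 83.6 FPKM, with overlapping ranges. Srebf1, Acly and Fasn came next at 9.95, 9.64 and 7.61 FPKM, each overlapping its neighbour. Acacb, Elovl6, Acaca and Elovl7 had the lowest means, 3.39, 2.24, 1.83 and 1.32 FPKM. Elovl7 spanned 0.0381 to 7.48 FPKM, and stood last of the 10 in model and control livers but seventh in treated livers, where its range overlapped that of Acacb. Summed over transcripts instead, the level was 1.81 times as high for Acaca and 1.72 times as high for Srebf1. Over the 9 libraries Elovl5 then stood above Fads2 and Acaca above Elovl6, in treated livers Srebf1 stood above Acly and Fasn, and in model livers above Acly, so the order of these neighbours depends on how length is counted.

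Srebf1 (chr11:60199089-60222581, minus strand, build GRCm38) had 52.1, 51.6 and 63.2 CPM in treated livers, 69.02, 46.2 and 82.2 CPM in model livers, and 94.5, 75.6 and 40.7 CPM in control livers. The groups overlapped throughout, and the control libraries spanned a 2.32-fold range. The log2 fold change was -0.09 ± 0.31 in model against control livers (SE, adjusted p = 0.942), -0.24 ± 0.31 in treated against model livers (adjusted p = 0.709) and -0.34 ± 0.31 in treated against control livers (adjusted p = 0.523). No change of Srebf1 RNA was detectable against this spread. SREBP-1 is also controlled by cleavage of its precursor at the membrane, which RNA levels do not show. The leading Srebf1 transcript, 4299 bases long, held an estimated 71.2% ± 2.40 of the gene's transcript FPKM in treated livers, 64.7% ± 10.4 in model livers and 63.7% ± 8.86 in control livers (SD, n = 3 each). Those shares overlapped between groups. Rai1, on the opposite strand, overlaps the end of Srebf1 by 109 bases and reached at most 19.2 CPM. No source used here says whether counting used strand.

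Acly (chr11:100476353-100528000, minus strand), the citrate lyase, had 56.8, 63.0 and 60.4 CPM in treated livers, 57.3, 66.6 and 64.7 CPM in model livers, and 53.7, 53.9 and 40.3 CPM in control livers. Each treated and each model library stood above each control library, by a small margin. The log2 fold change was 0.35 ± 0.12 in model against control livers (SE, adjusted p = 0.223) and 0.29 ± 0.12 in treated against control livers (adjusted p = 0.136). Neither passed the threshold. On deposited FPKM, tested with limma, Acly was called in treated against control livers. Those fits also raised the log2 fold changes of all genes there, by a median of 0.22 on log2(FPKM + 0.1) and 0.19 on log2(FPKM + 1). The Acly call cannot be set apart from that general shift. Over 20 alternatives the adjusted p of Acly in treated against control livers ran from 0.026 to 0.376. Treated against model livers gave -0.06 ± 0.12 (adjusted p = 0.811).

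Behind the steady total, the estimated split of Acly between its principal coding transcripts swung widely. The transcript of 4393 bases and 28 exons held 51.9, 69.5 and 90.6% of Acly transcript FPKM in treated livers, 45.7, 27.7 and 4.47% in model livers, and 78.8, 50.8 and 44.7% in control livers. The transcript of 4426 bases, which has 29 exons, held 35.7, 17.2 and 0.332% in treated livers, 38.7, 54.5 and 85.5% in model livers, and 8.39, 42.8 and 33.4% in control livers. The shorter form was higher in each treated library than in each model library, and the control libraries overlapped both groups. These forms differ by little sequence, so how reads were divided between them is an estimate by the authors' quantifier, and the range within model livers alone is wide. Of the other genes, Acacb and Fasn kept 73.5 to 99.0% and 76.5 to 97.8% of their transcript FPKM in 1 leading form, and Acaca, Scd1, Elovl5, Elovl6, Elovl7 and Fads2 at least 91.9%.

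**Figure D3:**
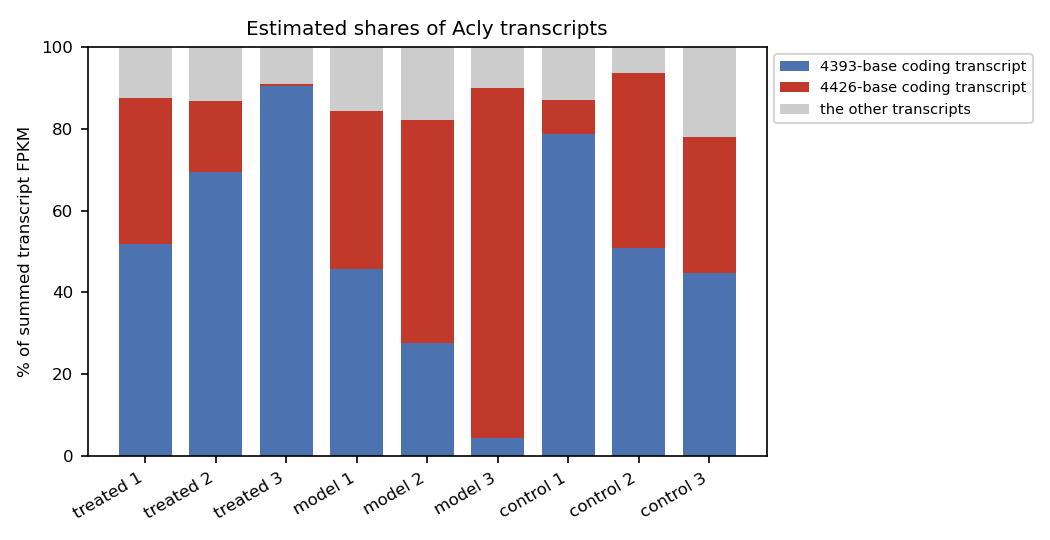
Estimated share (%, y axis) of the 4393-base and the 4426-base coding transcripts and of all others in the summed transcript FPKM of Acly, for each treated, model and control library (x axis). The 4393-base form ranges from 4.47% in model replicate 3 to 90.6% in treated replicate 3.

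Acaca (chr11:84129672-84401645, plus strand), the cytosolic acetyl-CoA carboxylase that supplies malonyl-CoA for synthesis, had 26.3, 27.9 and 55.7 CPM in treated livers, 38.3, 41.7 and 54.8 CPM in model livers, and 19.9, 31.8 and 20.4 CPM in control livers. Model livers lay above control livers without overlap, and treated replicate 3 stood at the level of the highest model library while the other 2 treated libraries lay within the control range. The fold was 1.87 in model against control livers (log2 0.90 ± 0.32 SE, adjusted p = 0.265), which missed the threshold here and passed it in DESeq2 (adjusted p = 0.0384). Over the alternatives tried for that comparison the adjusted p ran from 0.0384 to 0.497. In treated livers Acaca was at 1.53-fold of control (adjusted p = 0.243) and 0.816-fold of model livers (adjusted p = 0.651).

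Acacb (chr5:114146535-114250761, plus strand) encodes the carboxylase at the mitochondrial outer membrane, whose malonyl-CoA restrains the uptake of fatty acids for oxidation. It had 23.1, 31.0 and 46.0 CPM in treated livers, 38.2, 44.3 and 44.9 CPM in model livers, and 32.6, 33.9 and 40.9 CPM in control livers. All groups overlapped, and the treated libraries spanned a 1.99-fold range, the widest of the 3 groups for this gene. The log2 fold change was -0.35 ± 0.21 in treated against model livers (SE, adjusted p = 0.369), and without treated replicate 3 it was -0.65 (adjusted p = 0.0408). It was 0.25 ± 0.21 in model against control livers (adjusted p = 0.694) and -0.10 ± 0.21 in treated against control livers (adjusted p = 0.806), the last with a sign that turned in 4 of 20 alternatives.

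Fasn (chr11:120805846-120824547, minus strand), the synthase itself, had 85.4, 131.9 and 142.3 CPM in treated livers, 108.7, 68.0 and 112.3 CPM in model livers, and 71.4, 74.5 and 44.0 CPM in control livers. Every treated library was above every control library, and model replicate 2 fell within the control range. The mean was 120 ± 30.3 CPM in treated livers and 63.3 ± 16.8 CPM in control livers (SD, n = 3 each). That 1.89-fold difference (log2 0.92 ± 0.28 SE) had an adjusted p of 0.0531, which narrowly missed the threshold, and was called in 8 of 20 alternatives, DESeq2, limma-voom and both FPKM fits among them. Both FPKM fits carry the upward shift of all genes given above for Acly. The adjusted p of Fasn ran from 0.00282 to 0.155 over the 20 alternatives. Model against control livers gave 1.52-fold (adjusted p = 0.384) and treated against model livers 1.25-fold (adjusted p = 0.559).

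The stretch before the Fasn start is shown because SREBP-1 is known to act on this promoter together with the CCAAT-binding factor NF-Y. The 160 bases before the start, from RefSeq on GRCm38.p6 (chr11:120824548-120824707, minus strand), are printed with matches to the NF-Y box CCAAT, on either strand, in capitals:

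Fasn: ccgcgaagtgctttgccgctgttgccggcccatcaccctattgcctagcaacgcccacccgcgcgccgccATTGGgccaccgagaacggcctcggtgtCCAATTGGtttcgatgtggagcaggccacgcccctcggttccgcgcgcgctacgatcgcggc

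There are 3 matches, at 90, 62 and 59 bases before the start, and the last 2 overlap on opposite strands. A promoter window here runs from 250 bases before to 50 after the start. CCAAT was found in 37.4% of the 32851 mouse promoter windows of the RefSeq table. Promoter windows were found for 9 of the 10 genes, 11 windows in all, 3 of them for Srebf1. Those of Acaca and Acacb lie at RefSeq starts inside the gene, at bases 84195438 and 114165518, while the leading transcripts start at 84173122 and 114146535. The Fads2 window, on the minus strand, has its RefSeq start at base 10101503, while the leading transcript starts at 10101746. Of the 3 Srebf1 windows, 1 has its RefSeq start at base 60210471, while the leading transcript starts at 60220604. These windows lie within the leading transcripts, that of Fads2 almost wholly. They are therefore not the promoters of the forms that carried most of the RNA. The sterol regulatory element spelled TCACCCCAC, in 0.551% of all windows, was in none of the 11. The E-box CACGTG, in 7.15% of all windows, was in that of Elovl5 alone, 161 bases before its start. The GC box GGGCGG, in 35.7% of all windows, was found in Acly, Elovl7, Srebf1 and Fads2. The Fads2 match and some of the Srebf1 matches fall in the windows inside the leading transcripts. An exact letter match is only a description of these windows.

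Elovl6 (chr3:129532355-129634971, plus strand) encodes the elongase that turns palmitate into stearate, the step between fatty acid synthase and the oleate-forming desaturase. It had 17.4, 19.96 and 20.4 CPM in treated livers, 18.4, 19.0 and 26.3 CPM in model livers, and 9.06, 8.75 and 5.64 CPM in control livers. The lowest treated or model library was well above the highest control library, and the treated and model libraries overlapped. Elovl6 rose to 21.2 ± 4.42 CPM in model livers, against 7.82 ± 1.89 CPM in control livers (SD, n = 3 each), a fold of 2.71 (log2 1.44 ± 0.20 SE, adjusted p = 0.0104). It rose to 19.3 ± 1.60 CPM in treated livers against those control livers, a fold of 2.47 (log2 1.30 ± 0.20 SE, adjusted p = 0.00151). Both calls held in all 20 alternatives, with adjusted p from 2.53e-08 to 0.0375 for model and from 1.18e-07 to 0.00619 for treated livers. Treated against model livers gave a log2 fold change of -0.14 ± 0.20 (SE, adjusted p = 0.737), which does not show that the levels were equal. In model against control livers 3 of the 9 macrophage genes rose, while their summed levels overlapped, and 5 of the 7 endothelial genes fell. Both sums lay apart from control livers in treated livers, with the levels given above, and the part of these cells in the Elovl6 difference was not tested. Without model replicate 1, the library with muscle markers at 192 CPM, the log2 fold change of model against control livers was 1.53 (adjusted p = 0.0254).

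The sequence before Elovl6 is shown because it was the gene called against control livers in both groups, and none of the 4 motifs searched was in its window. The 160 bases that end before the deposited gene start (chr3:129532195-129532354, plus strand, RefSeq on GRCm38.p6) are all in lower case, since there was no match to mark:

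Elovl6: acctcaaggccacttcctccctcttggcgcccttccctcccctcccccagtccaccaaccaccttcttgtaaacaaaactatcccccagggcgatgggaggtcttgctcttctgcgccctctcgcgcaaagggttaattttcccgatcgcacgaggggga

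Among the genes most like Elovl6 over the 9 libraries, by Pearson's r of log2(CPM + 1) among 9899 genes, were Tmem97 (r = 0.961) and Ctnna1 (r = 0.956). The libraries fall into 3 groups, so such r values mostly follow the group means. Tmem97, which encodes a sterol-regulated protein of the endoplasmic reticulum, had 76.2, 76.3 and 84.2 CPM in treated livers, 83.6, 73.3 and 81.6 CPM in model livers, and 53.5, 49.8 and 46.4 CPM in control livers. Its treated and model libraries likewise overlapped each other and lay above the control libraries. Ctnna1, the alpha-catenin of adherens junctions, averaged 90.0 ± 2.52, 90.0 ± 3.05 and 72.6 ± 6.07 CPM in treated, model and control livers (SD, n = 3 each).

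Scd1 (chr19:44394455-44407709, minus strand), the stearoyl-CoA desaturase that makes oleate, varied widely within the model and control groups. It had 1104, 1083 and 1409 CPM in treated livers, 3123, 1121 and 3157 CPM in model livers, and 2867, 851 and 640 CPM in control livers. The treated libraries lay close together, within a 1.30-fold range, while model libraries spanned 2.82-fold and control libraries 4.48-fold. Treated against model livers gave a log2 fold change of -1.04 ± 0.65 (SE, adjusted p = 0.393), and model against control livers 0.76 ± 0.64 (adjusted p = 0.693). Control replicate 1 weighed on the model against control value, which was 1.73 without it (adjusted p = 0.163). Treated against control livers gave -0.28 ± 0.64 (adjusted p = 0.825), and 0.69 without control replicate 1.

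The ranking of libraries by Scd1 matched their ranking by Srebf1 in each group, a pattern noticed after the values were seen. In treated and in model livers replicate 3 was highest, replicate 1 next and replicate 2 lowest for both genes, and in control livers replicate 1 was highest and replicate 3 lowest. Treated replicates 1 and 2 nearly tied, at 1104 and 1083 CPM for Scd1 and 52.07 and 51.55 CPM for Srebf1. Such likeness was not particular to this pair. Pearson's r of deviations from group means was 0.868 for it, 0.852 for Srebf1 with Elovl6, 0.829 for Srebf1 with Fasn and 0.854 for Elovl5 with Fads2. Srebf1 with Fads2 gave 0.367. The size of the differences was unlike, since Srebf1 spanned 1.23-fold in treated, 1.78-fold in model and 2.32-fold in control livers. Control replicate 1 was also the highest of all 9 libraries for Srebf1, Elovl5 and Fads2. Control replicate 3 was the lowest of all 9 for 5 of the 10 genes. Within treated livers, replicate 3 was highest for 7 genes and replicate 1 lowest for 7.

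**Figure D4:**
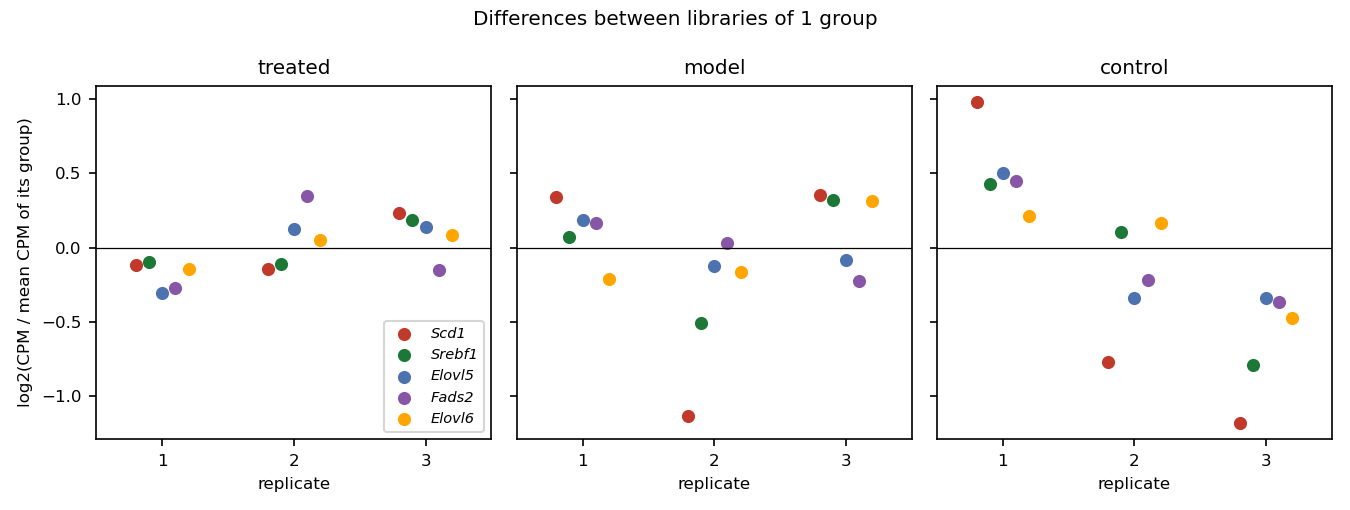
Level of Scd1, Srebf1, Elovl5, Fads2 and Elovl6 in each library relative to the mean of its group, as log2 of the ratio of CPM values (y axis), for replicates 1 to 3 (x axis, no order implied) of treated, model and control livers. Scd1 and Srebf1 points lie in the same order within each group, and control replicate 1 is above its group mean for all 5 genes.

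The polyunsaturated branch showed no called change. Elovl5 (chr9:77917364-77984519, plus strand), an elongase of polyunsaturated fatty acids, had 233.7, 316.3 and 318.2 CPM in treated livers, 394.9, 319.1 and 328.8 CPM in model livers, and 522.2, 291.2 and 291.1 CPM in control livers. The highest treated library was just below the lowest model library, and control replicate 1 stood apart from the other 2 control libraries. The log2 fold change was -0.26 ± 0.23 in treated against model livers (SE, adjusted p = 0.546), -0.35 ± 0.23 in treated against control livers (adjusted p = 0.344) and -0.08 ± 0.23 in model against control livers (adjusted p = 0.927). Fads2 (chr19:10062765-10101746, minus strand), which carries out the first desaturation of linoleic and alpha-linolenic acid, had 241.6, 370.2 and 262.3 CPM in treated livers, 382.5, 348.1 and 292.1 CPM in model livers, and 439.1, 277.0 and 249.3 CPM in control livers. Its groups overlapped in all 3 comparisons, with adjusted p of 0.618 in treated against model, 0.733 in treated against control and 0.927 in model against control livers.

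Elovl7 (chr13:108214404-108285683, plus strand), an elongase that acts on long saturated acyl chains, was near the lower end of detection outside treated livers. It had 29.9, 9.23 and 7.44 CPM in treated livers, 0.234, 1.13 and 0.210 CPM in model livers, and 0.179, 0.385 and 0.224 CPM in control livers. No treated library overlapped a model or control library, and treated replicate 1 was 4.02-fold above the lowest treated library. Summed over the 3 libraries, 3115 counts fell on Elovl7 in treated livers, 93 in model livers and 42 in control livers. As CPM on plain library totals these sums are 17.2 (16.6 to 17.8) in treated, 0.523 (0.422 to 0.641) in model and 0.245 (0.177 to 0.332) in control livers. The brackets hold exact 95% binomial intervals, which treat estimated counts as reads and pool the 3 libraries of a group. They leave out the differences between libraries, and none of the 3 treated libraries lies within the treated interval. Elovl7 rose in treated livers by 29.2-fold against model livers (log2 4.87 ± 0.86 SE, adjusted p = 0.0127) and by 58.9-fold against control livers (log2 5.88 ± 0.92 SE, adjusted p = 0.00421). Without treated replicate 1 the log2 fold changes were 3.98 (adjusted p = 0.0118) and 4.98 (adjusted p = 0.00284). The call against model livers was lost without model replicate 1, at a log2 fold change of 4.52 (adjusted p = 0.0516). Both calls were lost in limma-voom, at 5.002 against model and 5.65 against control livers (adjusted p = 0.0542 and 0.0544). Model against control livers gave a log2 fold change of 1.01 ± 0.88 (adjusted p = 0.699), a value set by model replicate 2, without which it was -0.22.

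Some markers of other cell types also differed between the groups in which Elovl7 differed. Of the 9 macrophage genes, 5 rose in treated against model livers, Cd68, Cd14, Mpeg1, Gpnmb and Lyz2, and these with Trem2 rose in treated against control livers. Adgre1, Csf1r and Clec4f were called in neither comparison (adjusted p = 0.175, 0.095 and 0.909 against model livers). Gpnmb and Lyz2 carried much of the macrophage sum, with means of 254 and 261 CPM in treated livers and 7.47 and 40.4 CPM in model livers. Of the 7 endothelial genes, 4 fell in treated against model livers and 7 in treated against control livers. The skeletal muscle sum was high in all 3 treated libraries, and also in model replicate 1, in which Elovl7 stood at 0.234 CPM. Adipocyte genes summed to 46.9 to 79.7 CPM in treated, 34.6 to 73.0 in model and 33.8 to 58.0 in control livers, with Lep at 0 and Adipoq at no more than 0.346 CPM in any library. Of the 4 adipocyte genes tested, Fabp4, which macrophages also express, rose 2.99-fold in treated against model livers and 2.03-fold against control livers (adjusted p = 0.000531 and 0.00241). Lipe fell 2.23-fold and 2.07-fold in the same comparisons (adjusted p = 0.00122 and 0.00101), and Cidec rose 3.08-fold against control livers (adjusted p = 0.0154). Cholangiocyte genes summed to 35.8 to 61.3 CPM in treated, 22.3 to 46.8 in model and 26.6 to 43.7 in control livers, and pancreatic acinar genes to at most 1.54 CPM. The part of these cells in the Elovl7 difference was not tested.

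The genes most like Elovl7 over the 9 libraries were Srxn1 (r = 0.989), Prr13 (r = 0.988) and Nfkb2 (r = 0.985). Srxn1, which encodes sulfiredoxin, a repair enzyme of oxidised peroxiredoxins, had 672.7, 235.0 and 217.8 CPM in treated livers, 43.6, 48.3 and 38.7 CPM in model livers, and 26.2, 28.1 and 28.7 CPM in control livers. Like Elovl7, it was highest in treated replicate 1 and several times lower in the other treated libraries. Nfkb2, an NF-kappaB subunit, had 24.4, 17.8 and 13.9 CPM in treated livers, 7.62, 9.79 and 7.38 CPM in model livers, and 6.88, 7.48 and 8.73 CPM in control livers. Prr13 averaged 33.5 ± 3.44, 23.4 ± 0.689 and 22.5 ± 1.03 CPM in treated, model and control livers (SD, n = 3 each).

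The sequence before Elovl7 is shown because its RNA differed most among the 10 genes. Over the 160 bases before its start (chr13:108214244-108214403, plus strand, RefSeq on GRCm38.p6), capitals mark matches to the GC box GGGCGG on either strand:

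Elovl7: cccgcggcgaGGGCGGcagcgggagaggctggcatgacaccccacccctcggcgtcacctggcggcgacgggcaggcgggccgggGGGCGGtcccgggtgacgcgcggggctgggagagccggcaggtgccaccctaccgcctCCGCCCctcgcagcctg

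The 3 matches start 150, 75 and 17 bases before the start, and the window of Elovl7 held neither an NF-Y box nor an E-box.

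Other genes of the pathway were read from lists of related functions. Over all genes tested, 1.12% were called in model against control, 9.65% in treated against model and 17.8% in treated against control livers. The medians over all genes were -0.001, 0.005 and -0.009 in that order. Those values stand beside every list count and median below. The lists are short and were chosen with earlier results known, so their counts are no result about a list as a whole. Among 13 genes of citrate export, NADPH supply and lipogenic help, none was called in model against control livers, 2 rose and 1 fell in treated against model livers, and 3 rose and 1 fell in treated against control livers. The list's median log2 fold changes in these comparisons were 0.42, -0.12 and 0.55. G6pdx, the entry enzyme of the pentose phosphate pathway, rose to 12.9 ± 2.10 CPM in treated livers, against 4.01 ± 0.872 CPM in model livers and 2.64 ± 0.345 CPM in control livers (SD, n = 3 each), with adjusted p of 0.00125 and 0.000122. Pgd, the next NADPH-producing enzyme of that pathway, rose to 107 ± 42.5 CPM in treated livers, against 29.2 ± 0.164 in model livers and 17.4 ± 1.53 in control livers (adjusted p = 0.0015 and 0.00014). Its treated replicate 1, at 155.6 CPM, was the highest, as for Elovl7. Mlycd, the malonyl-CoA decarboxylase, fell to 79.6 ± 7.67 CPM in treated livers, against 118 ± 3.48 in model livers and 126 ± 2.55 in control livers (adjusted p = 0.00497 and 0.00105). Acsl3, an acyl-CoA synthetase, rose 2.19-fold in treated against control livers (adjusted p = 0.0332).

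Among 14 tested genes of other desaturases, elongases and the elongation cycle, of 17 listed, none was called in model against control livers, 2 rose in treated against model livers, and 3 rose and 1 fell in treated against control livers. The medians were -0.006, -0.04 and 0.00. Scd2, the stearoyl-CoA desaturase more typical of brain, had 10.6, 8.49 and 12.2 CPM in treated livers, 4.47, 4.995 and 3.80 CPM in model livers, and 5.79, 5.58 and 5.58 CPM in control livers. It rose 2.36-fold against model livers (adjusted p = 0.00311) and 1.85-fold against control livers (adjusted p = 0.00882), while Scd1 was not called. Hacd4, a dehydratase of the elongation cycle, rose 2.56-fold against model livers (adjusted p = 0.0449) and 2.31-fold against control livers (adjusted p = 0.0469). Hacd3, a related dehydratase, rose 1.37-fold against control livers (adjusted p = 0.0211). Elovl2, which elongates long polyunsaturated chains, fell to 280 ± 23.4 CPM in treated livers, against 433 ± 87.3 CPM in control livers (SD, n = 3 each, adjusted p = 0.0123).

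Of 16 regulators of SREBP-1, LXR and ChREBP, none was called in model against control livers, 1 fell in treated against model livers, and 2 rose and 3 fell in treated against control livers. The medians were -0.02, -0.06 and -0.13. Mlxipl, which encodes ChREBP, had 217.1, 287.4 and 310.3 CPM in treated livers, 465.2, 384.8 and 445.1 CPM in model livers, and 473.9, 568.2 and 545.1 CPM in control livers. It fell 1.59-fold against model livers (adjusted p = 0.0177) and 1.95-fold against control livers (adjusted p = 0.00149), without overlap of libraries. Scap, the escort that carries SREBPs to the Golgi for cleavage, fell to 80.0 ± 10.9 CPM in treated livers, against 144 ± 9.17 CPM in control livers (SD, n = 3 each, adjusted p = 0.0119). Srebf2, the sterol-pathway relative of Srebf1, rose 1.72-fold in that comparison (adjusted p = 0.00287). Pparg, a lipid-storage regulator that macrophages also express, rose 6.64-fold (adjusted p = 0.00315), to 16.4 ± 1.88 CPM in treated livers, against 2.46 ± 1.75 CPM in control livers. Usf2, an E-box binding factor named after its values were seen, was the remaining gene that fell, by 1.26-fold (adjusted p = 0.0254). Nr1h3, which encodes the liver's LXR alpha, averaged 86.0 ± 5.34 CPM in treated, 90.1 ± 11.8 in model and 87.9 ± 8.73 in control livers and was likewise named afterwards.

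AMP-activated kinase phosphorylates and inhibits both acetyl-CoA carboxylases. Of its 8 listed genes, none was called in model against control livers. In treated against model livers 2 rose, where 9.65% of all genes were called. In treated against control livers 1 rose and 1 fell, where 17.8% of all genes were called. The medians were -0.11, 0.08 and 0.10. Prkab2, a beta subunit abundant in muscle, had 9.81, 25.6 and 11.2 CPM in treated livers, 4.86, 4.38 and 5.02 CPM in model livers, and 4.06, 7.17 and 3.77 CPM in control livers, and rose 3.27-fold against model livers (adjusted p = 0.0221) and 3.11-fold against control livers (adjusted p = 0.0155). Prkag3, a gamma subunit of skeletal muscle, was called against model livers (adjusted p = 0.0444) but stayed under 1 CPM in every library. It had 0.895, 0.993 and 0.913 CPM in treated livers and at most 0.133 CPM in model livers. It passed the filter on low counts only because of its treated libraries, so this call is no support for a difference. The muscle marker sums given above were high in the same 3 treated libraries and in model replicate 1. In that model library Prkab2 stood at 4.86 CPM and Prkag3 at 0 CPM. The part of muscle RNA was not tested. Stk11, the upstream kinase, fell to 89.1 ± 2.33 CPM in treated livers, against 118 ± 10.3 CPM in control livers (SD, n = 3 each, adjusted p = 0.0162). Of 6 tested genes of mitochondrial fatty acid synthesis, of 7 listed, none was called in model against control livers and 1 fell in both comparisons of treated livers, with medians of 0.09, -0.33 and -0.20. It was Acsf3, the malonyl-CoA synthetase, with 20.99, 19.6 and 19.4 CPM in treated livers, against 28.4 ± 1.39 CPM in model livers and 25.7 ± 1.14 CPM in control livers (SD, n = 3 each, adjusted p = 0.00954 and 0.0262).

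Lipogenic genes follow feeding and time of day, and markers of both differed between groups. Of the listed genes that respond to feeding and insulin, 1 rose in model against control livers and 1 rose in treated against model livers, and Pklr and Igfbp1 are described here. Pklr, the liver pyruvate kinase and a ChREBP target, had 78.0, 90.9 and 64.3 CPM in treated livers, 135, 131 and 128 CPM in model livers, and 79.5, 59.8 and 55.5 CPM in control livers. It rose 2.02-fold in model against control livers (adjusted p = 0.0137) and fell 1.69-fold in treated against model livers (adjusted p = 0.0123). Igfbp1, which insulin represses, rose 8.14-fold in treated against model livers (adjusted p = 0.0417), with 148, 204 and 523 CPM in treated livers, 13.4, 51.6 and 42.4 CPM in model livers, and 77.3, 46.3 and 79.5 CPM in control livers.

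Of 13 circadian clock genes, 3 fell in model against control livers, 2 rose and 3 fell in treated against model livers, and 2 fell in treated against control livers, with medians of 0.27, -0.72 and -0.41. Arntl, the clock activator BMAL1, had 20.2, 12.2 and 19.4 CPM in treated livers, 7.83, 6.08 and 9.83 CPM in model livers, and 19.2, 23.0 and 26.2 CPM in control livers. It fell 2.88-fold in model against control livers (adjusted p = 0.0128) and rose 2.18-fold in treated against model livers (adjusted p = 0.0118). Npas2, its partner, fell 7.20-fold in the first comparison (adjusted p = 0.0128) and rose 4.86-fold in the second (adjusted p = 0.00796). Clock fell 1.51-fold in model and 1.40-fold in treated livers against control livers (adjusted p = 0.0464 and 0.0181). Tef, an output factor of the clock, fell 2.90-fold in treated against model livers (adjusted p = 0.0052) and 1.76-fold against control livers (adjusted p = 0.0445). Nr1d2, a repressor of Arntl, fell 1.68-fold in treated against model livers (adjusted p = 0.021), and Per3, named after its values were seen, fell 5.37-fold (adjusted p = 0.0375). No source used here gives the hour at which livers were taken, and the part of clock phase or feeding in the Elovl6 and Elovl7 differences was not tested.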

How the data were processed

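Polyadenylated RNA in 9 mouse liver libraries, 3 per group, was analysed from the authors' tables. The submitters' processing notes name the aligner HISAT2 with no version. For quantifier, strandedness and annotation, these were not given in the sources used here. Per the file headers, the authors deposited FPKM and estimated counts for genes and for transcripts. The deposited estimated counts are whole numbers, so no rounding was needed. With a scaling constant fitted per library, they follow FPKM times transcript length to within 1 count in at least 98.89% of transcripts per library. FPKM is itself a count scaled to length and library size, so this does not tell whether they are a tally of reads. Member coordinates are those in the files, and 7 of 10 match GENCODE M21 (GRCm38) at both ends.

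The 10 genes and the related lists were chosen with earlier results of these data known. Gene counts were fitted in edgeR 4.0.16 (R 4.3.3) with quasi-likelihood F tests, robust dispersions and TMM scaling, in 1 fit over 9 libraries and 3 groups. The filterByExpr minimum count of 10 and minimum total of 15 left 18113 genes, and the threshold was 0.05 on Benjamini-Hochberg adjusted p-values. CPM values use TMM-scaled library sizes, and fold changes are those of the fit. Depth was 56440871 to 60665156 counts per library, which limits genes under 1 CPM most. The steps were tested on simulated data. Alternatives, 20 per comparison, were other scalings, filters, DESeq2 1.42.0, limma 3.58.1 on counts and on log2(FPKM + 0.1) or log2(FPKM + 1), subsets of libraries and a replicate term. Named genes were all 10 members, list genes called in a comparison, and the 3 genes most like each called member among genes of at least 5 CPM on average. List genes were limited to 4 per list and comparison, those with the smallest p. Motifs were matched by letters in RefSeq promoters. Protein sequences were not used here. Some genes that this rule would name are not reported here.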

Additional observations from a re-analysis of the deposited data

How the results depend on the processing

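Of 600 recomputed gene results (30 over 20 alternatives), 560 kept their direction and side of the threshold, 3 lost a call, 12 gained one and 25 changed sign, none of them called. No member (0) was called with limma-voom in treated against model livers. With DESeq2 2 members were called in model against control livers, and both FPKM fits called 4 in treated against control livers, adding Fasn and Acly. Leaving out 1 library gave 1 member in model against control, 0 to 2 in treated against model and 2 to 3 in treated against control livers, and 54 to 213, 882 to 1660 and 2169 to 2996 genes. In model against control livers 871 genes were called with DESeq2 and 109 with log2(FPKM + 1), against 202, and in treated against model livers 2742 with DESeq2, against 1748. Deposited FPKM moved the median log2 fold change of all genes by 0.17 (pseudocount 0.1) and 0.15 (pseudocount 1) in treated against model livers and by 0.22 and 0.19 in treated against control livers. The split of higher to lower calls was 1564 to 401 and 1709 to 390 there, against 943 to 805 in the counts, and 3124 to 832 and 3157 to 813, against 1696 to 1535. The cause was not tested.

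Sign changes on FPKM (0.1, then 1) were Elovl5 0.0144 and 0.0136 in model against control, Acly 0.113 and 0.103 and Elovl6 0.0523 and 0.0365 in treated against model, and Fads2 0.0995 and 0.0981, Scd1 0.259 and 0.257 and Acacb 0.0711 and 0.0619 in treated against control livers, where Scd1 gave 0.0376 in limma-voom. Leaving out 1 library, log2 fold changes in model against control livers ran from -0.371 to 0.179 for Srebf1, -0.227 to 0.256 for Elovl5, -0.0711 to 0.374 for Fads2 and -0.223 to 1.388 for Elovl7. Elovl6 ran from -0.232 to 0.0456 in treated against model livers. In treated against control livers Fads2 ran from -0.353 to 0.147, Scd1 from -0.634 to 0.685 and Acacb from -0.402 to 0.106. From transcript counts per base, leading shares became 100% for Scd1 in control and Elovl7 in model and control livers, and 99.99%, 99.92% and 99.98% for Elovl5 in treated, model and control livers.

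Same-numbered libraries of different groups were not more alike than others. Their deviations from the group means correlated at -0.314 to 0.155, and those of libraries with different numbers at -0.16 to 0.379. Not every library correlated best with its own number. Deviations within a group of 3 libraries cancel out, so these values do not exclude a pairing. With the replicate block, 1, 1 and 2 members were called as before, and 120, 1245 and 2611 genes. Depth limits Elovl7 in model and control livers, at 93 and 42 counts in all.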
